A study of Drosophila melanogaster with 12 samples.

Results

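The cytosolic ribosomal proteins of Drosophila melanogaster were followed in RNA from adult heads. Members were the rows of the deposited gene table whose FlyBase symbol begins with RpL or RpS followed by a number, begins with RpLP, or is sta, the symbol of the gene for the small subunit protein SA. The rule found 92 genes among 13515 rows, of which 54 encode large subunit and 38 small subunit proteins or close relatives of them. Of these, 85 reached a mean of 10 across the 12 libraries and were tested, 51 of the large and 34 of the small subunit. Another gene that the rule matches, RpS28-like, had no row and was not analysed here.

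Tau flies had the genotype Elav-Gal4/+;UAS-tauR406W/+, and control flies had the genotype Elav-Gal4/+. Elav-Gal4 is a driver active in neurons, so that tau flies made human tau with the R406W change, a mutation of inherited frontotemporal dementia, in neurons. Both groups carried the driver, and the controls carried no UAS transgene. Each group had 6 libraries, named A to F, each from 18 heads of males and females pooled at day 10 of adulthood, so that p-values measure the spread between pools. Rows of the table are fly genes, and the human transgene was not analysed here.

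Ribosomal proteins assemble with ribosomal RNA into a small subunit, which reads the messenger RNA, and a large subunit, which joins amino acids. Most are encoded by a single gene in the fly, and loss of a single copy of many of these genes gives the Minute phenotype of slow development and thin bristles. Their messenger RNAs are abundant in every cell, begin with a pyrimidine tract that places their translation under control of the TOR kinase, and several of the genes host small nucleolar RNAs in their introns.

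The values are read counts per gene divided by normalisation factors, called normalised counts below; they are not corrected for gene length. Estimated depths were 25.6 to 41.4 M read pairs in tau libraries and 20.1 to 33.2 M in control libraries. Markers of neurons, glia, photoreceptors, muscle, fat body and haemocytes were all present, as heads hold all of these, and 6 of 9 germ line markers had a mean under 10. In bulk RNA, fewer cells of a type and less RNA per cell cannot be told apart. Among the marker lists, 4 of 6 haemocyte markers fell in tau heads, with summed normalised counts of 16640 to 20377 in tau libraries and 23085 to 33105 in control libraries. Of 6 fat body markers, fit alone was called, lower in tau. All 6 lay below 0, with a median log2 fold change of -1.07. The list's sum ran from 554758 to 1464359 in tau libraries and from 766329 to 2446285 in control libraries. In the glia list Eaat1 fell (1 of 6), with list sums of 47253 to 53176 in tau and 52976 to 64202 in control libraries, and in the photoreceptor list Arr2 fell (1 of 6), with list sums of 997396 to 1271250 in tau and 1170146 to 1419947 in control libraries. In the neuron list and in the muscle list, 0 of 6 markers were called. These marker values stand beside every result below, and their part in it was not tested.

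Tau heads differed from control heads in few ribosomal protein genes, and all of these were lower in tau. Of the 85 members tested, 6 fell, 0 rose and 79 were not called (limma on log2(value + 1), Benjamini-Hochberg adjusted p under 0.05 over all 10845 genes tested). The 6 were RpS21, RpS2 and RpS14a of the small subunit and RpL38, RpL41 and RpL37A of the large subunit. They make up 7.06% of the members, where 3.13% of all genes tested were called lower, 2.1% were called higher and 5.23% were called in either direction. By subunit, 3 of 34 small subunit genes (8.82%) and 3 of 51 large subunit genes (5.88%) were called. The tau and control values did not overlap, with tau lower, in 5 members, against 1.8% of all genes tested. No member had every tau value above every control value, a pattern shown by 1.58% of all genes tested.

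Most of the family moved little. The log2 fold changes of tau over control ran from -1.06 to 0.21, 70 of 85 lay within 0.3 of 0, and the median standard error of a member was 0.11. The median over members was -0.10, against 0.008 over all genes tested, and 61 of 85 were below 0. At an unadjusted p under 0.05 there were 15 members lower and 1 higher, RpL35A, where 9.55% of all genes tested were lower and 8.63% higher. That balance moved with the libraries used, with their scaling and with a covariate. Without tau E and control C it was 12 lower and 7 higher, where 8.04% of all genes tested were lower and 7.78% higher. With libraries rescaled to equal totals it was 11 lower and 3 higher, where 5.75% of all genes tested were lower and 16% higher. That rescaling moved the median of all genes to 0.11, the members' median was 0.01, 42 of 85 were below 0, and 5 members were called lower and 1 higher. It gave 525 genes higher (4.82%) and 261 lower (2.39%) over the whole table, against 228 higher and 339 lower with the deposited values. Without control C, a library described below, the members' median was -0.03. The same 6 members remained called lower, where 2.6% of all genes were called lower. In a fit with the yolk protein covariate, also described below, the members' median was 0.03 and 39 of 85 were below 0. At an unadjusted p under 0.05 in that limma fit, 6 members were lower and 4 higher. The shares of all genes tested were 6.48% lower and 4.83% higher.

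**Figure D1:**
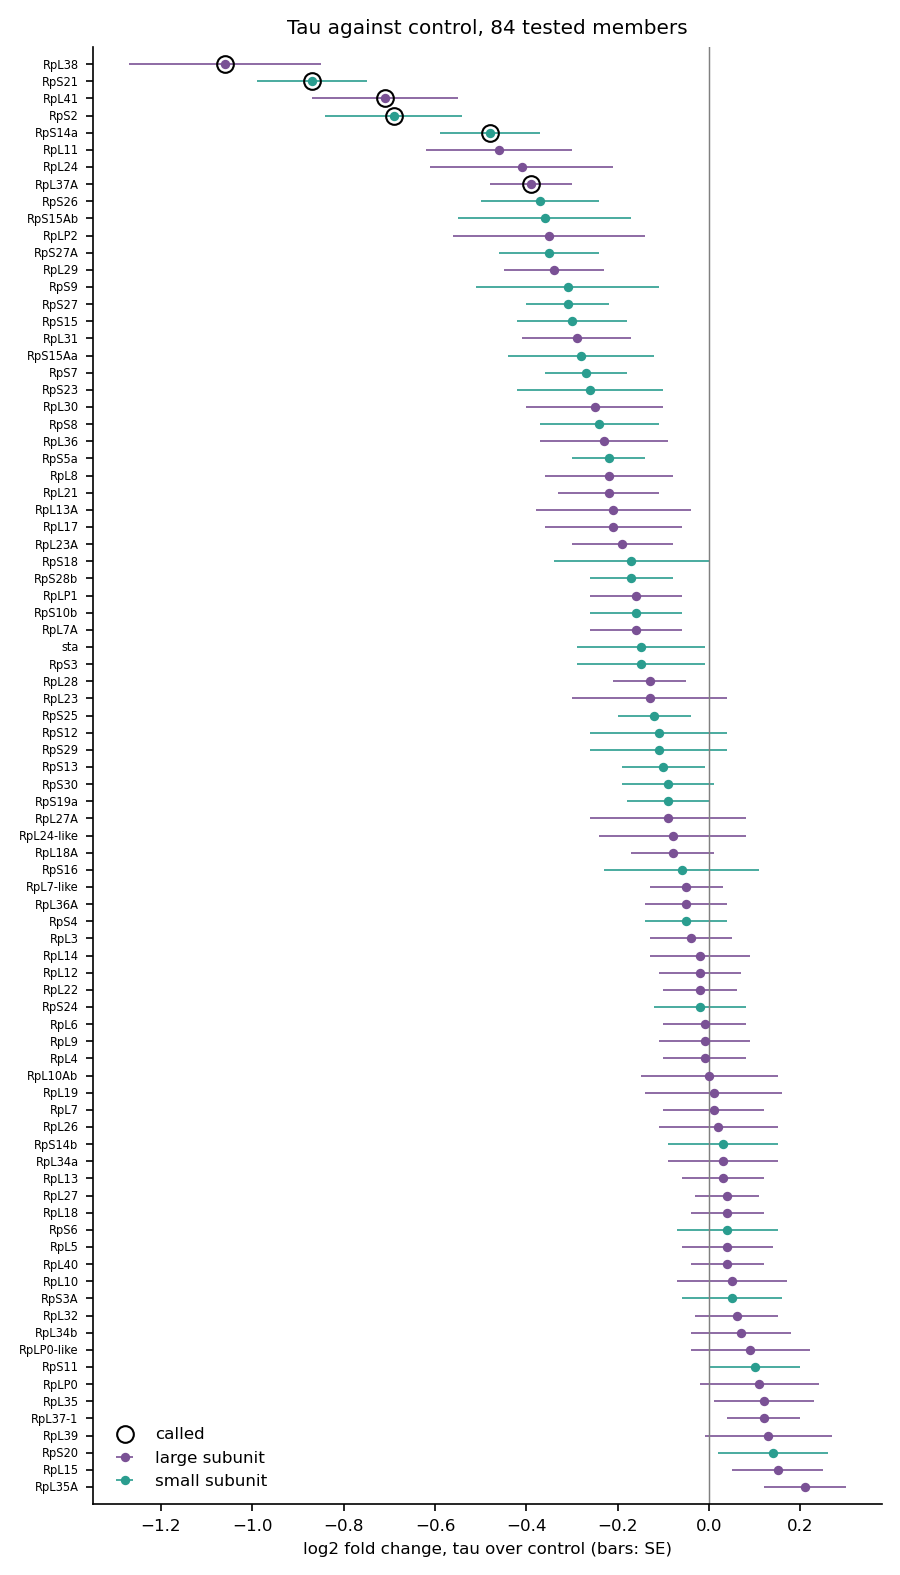
Log2 fold change of normalised count, tau over control, for 84 of the members tested; points are estimates, bars are standard errors, colours give the subunit and open rings mark the called genes. The 6 called genes lie between -1.06 and -0.39, and no point lies above 0.21.

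RpS21, a small subunit protein that binds the protein encoded by sta, had the smallest adjusted p among members. Its normalised count was 4218 at the lowest, 5092 at the median and 5721 at the highest in tau libraries, against 7892, 8206 and 12757 in control libraries. Every tau library was below every control library. The means were 5016 ± 508 in tau and 9271 ± 1996 in control heads (SD, n = 6 each), a 1.82-fold lower level in tau (log2 fold change -0.87, SE 0.12, limma adjusted p = 0.000653). The gene lies at 2L:2856070-2857029, on the plus strand (dm6). It was the 1 member that passed the threshold in every alternative fit, with adjusted p from 0.000157 to 0.0137.

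RpS2, a core protein of the small subunit near the entry of the messenger RNA channel, had 6917, 8371 and 11243 normalised counts at the lowest, median and highest in tau libraries, against 10897, 13374 and 21098 in control libraries. The groups overlapped by 1 library each, since tau A at 11243 stood above control B at 10897. The means were 8775 ± 1701 in tau and 14275 ± 3649 in control heads (SD, n = 6 each), 1.61-fold lower in tau (log2 fold change -0.69, SE 0.15, limma adjusted p = 0.0156). The gene is at 2L:9896265-9897552, on the minus strand.

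RpS14a, 1 of a pair of neighbouring genes on the X chromosome that encode the same protein of the small subunit platform, had 6032, 6966 and 7626 normalised counts at the lowest, median and highest in tau libraries, against 8047, 8980 and 13589 in control libraries. No tau library reached the lowest control library. The means were 6927 ± 582 in tau and 9788 ± 2014 in control heads (SD, n = 6 each), 1.40-fold lower in tau (log2 fold change -0.48, SE 0.11, limma adjusted p = 0.0213). The call for RpS14a was lost without tau E (adjusted p = 0.0572) and without control A (adjusted p = 0.0582).

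RpL38, a small protein on the surface of the large subunit whose loss in the mouse alters the translation of Hox messenger RNAs, had the lowest log2 fold change of the family. It had 1007, 1487 and 1628 normalised counts at the lowest, median and highest in tau libraries, against 1997, 2675 and 5752 in control libraries. All tau libraries were below all control libraries, and control C was far above the other controls, the next highest of which had 3271. The means were 1404 ± 218 in tau and 3095 ± 1378 in control heads (SD, n = 6 each), 2.08-fold lower in tau (log2 fold change -1.06, SE 0.21, limma adjusted p = 0.00674). Without control C the log2 fold change was -0.86 with an adjusted p of 0.00218. RpL38 is at 2R:4515388-4516458, on the minus strand.

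RpL41 encodes the shortest ribosomal protein, a peptide between the subunits. Its normalised counts were 8759, 10936 and 11958 at the lowest, median and highest in tau libraries, against 12990, 15924 and 29744 in control libraries. Tau and control libraries did not overlap, and control C was again highest. The means were 10609 ± 1212 in tau and 17912 ± 6022 in control heads (SD, n = 6 each), 1.63-fold lower in tau (log2 fold change -0.71, SE 0.16, limma adjusted p = 0.0159). The gene, at 2R:24903416-24903935, lies in an intron of the sodium channel gene NaCP60E on the opposite strand. The strand setting used in quantification is not given in the sources used here.

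RpL37A encodes a zinc-binding protein of the large subunit. Its normalised counts were 3365, 3973 and 4535 at the lowest, median and highest in tau libraries, against 4821, 5231 and 6105 in control libraries, with no overlap. The means were 4047 ± 433 in tau and 5287 ± 459 in control heads (SD, n = 6 each), 1.31-fold lower in tau (log2 fold change -0.39, SE 0.09, limma adjusted p = 0.0161). Among the 6 called genes this was the one in which control C, at 5350, was not the highest control: control A and control F were higher. At 2L:5070957-5072055, on the plus strand, the gene overlaps the antisense RNA asRNA:CR45305, which has no row. The call was lost when libraries were rescaled to equal totals (limma adjusted p = 0.0579).

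**Figure D2:**
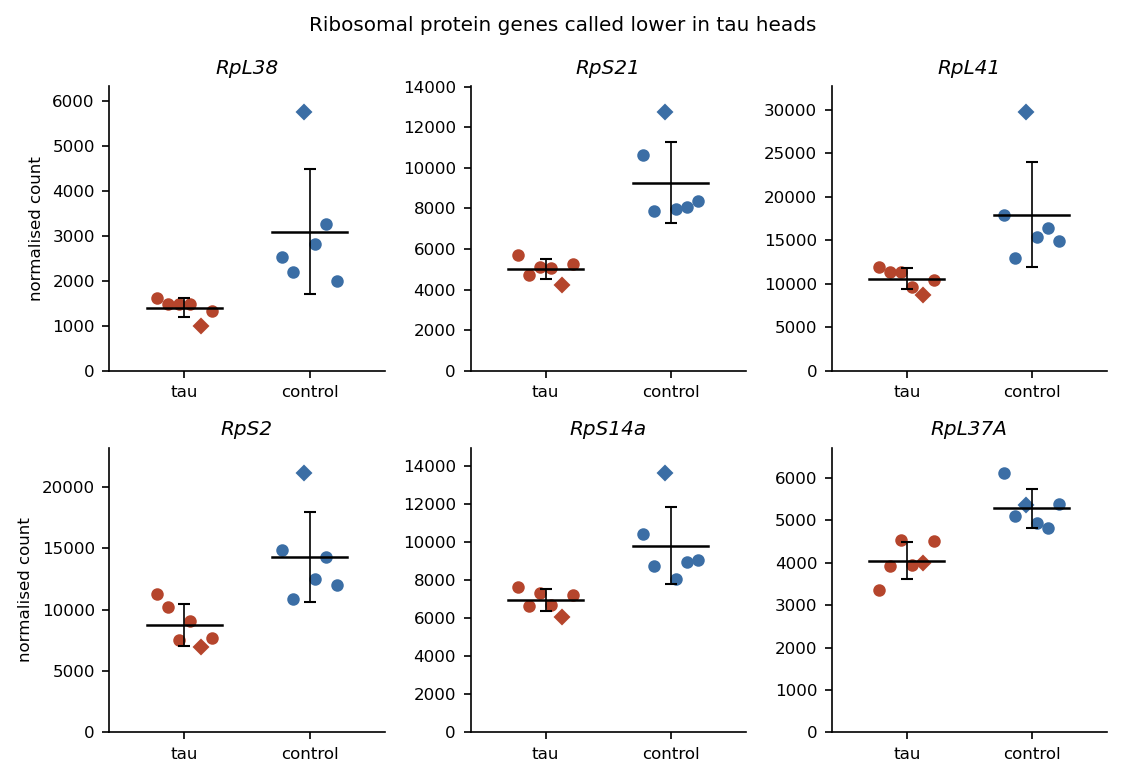
Normalised counts of the 6 members called lower in tau, 1 point per library with tau left of control; horizontal lines are means, bars are SD (n = 6 each), and diamonds mark tau E and control C. In 5 of the panels every tau point is below every control point, and in RpS2 tau A overlaps control B.

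Several calls rested on the choice of fit, in fits that also called fewer genes over the whole table. Without a variance trend, where 1.95% of all genes were called lower, RpL41, RpS2 and RpS14a had limma adjusted p of 0.0542, 0.0540 and 0.0587. Without tau B, control E and control F, the libraries with the fewest genes at 0, the share of all genes called lower was 1.68%. In that fit RpL41, RpL37A and RpS14a were not called (adjusted p = 0.0591, 0.0779 and 0.0834), while their log2 fold changes, -0.80, -0.41 and -0.52, lay slightly further from 0 than with all libraries. The yolk protein genes Yp1, Yp2 and Yp3 had log2 fold changes of -0.91, -1.22 and -0.89, and none of them was called. Their mean log2 level was thus lower in tau heads on average, and a fit that holds it cannot fully separate it from genotype. The part of each was not tested. With that mean log2 level as a covariate, 0.848% of all genes were called lower. In that fit 1 of the 6 genes, RpS21, was still called (log2 fold change -0.64, limma adjusted p = 0.0137). The log2 fold changes of the other 5 in that fit were -0.90 for RpL38, -0.48 for RpL41, -0.51 for RpS2, -0.34 for RpL37A and -0.27 for RpS14a, with adjusted p from 0.122 for RpL38 to 0.351 for RpS14a.

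The called genes were compared with the rest of the family for features outside the expression values. None of the 6 holds an annotated small nucleolar RNA, whereas 29 of the 85 members tested do; 0 of those 29 and 6 of the other 56 were called. Of 18 members on chromosome arm 2L, 3 were called, of 19 on 2R, 2 were called, of 15 on X, 1 was called, and 0 were called of 14 on 3L, 18 on 3R and 1 on chromosome 4. The median exon length was 859 bp in the called members and 944 bp in the others. These are counts over a small list and were not tested.

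The members next to the threshold were RpS27 at a log2 fold change of -0.31 (adjusted p = 0.0703), RpS27A at -0.35 (adjusted p = 0.0845) and RpL29 at -0.34 (adjusted p = 0.0894) in the limma fit. RpS27 was called when tau A was left out, and RpL29 when control F was left out. RpL11 had a lower log2 fold change than RpL37A, -0.46 with an SE of 0.16, but was not called (adjusted p = 0.126). At the other end, RpL35A had 13577, 16124 and 17064 normalised counts at the lowest, median and highest in tau libraries, against 11841, 13705 and 15421 in control libraries. Its log2 fold change of 0.21 was not called (SE 0.09, adjusted p = 0.204), although it was called higher with libraries rescaled to equal totals (adjusted p = 0.0422). RpL15, RpS20, RpL39, RpL37-1 and RpL35 followed with log2 fold changes from 0.15 to 0.12, and none of them was called.

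Members outside the 6 called genes, which by definition hold no call, are described here by role. RpL38 and RpL41, also chosen by role, are among the 6. In the stalk, which recruits elongation factors to the large subunit, the log2 fold changes were 0.11 for RpLP0, -0.16 for RpLP1 and -0.35 for RpLP2 (limma adjusted p = 0.75, 0.465 and 0.404). RpL5 and RpL11, which bind 5S ribosomal RNA together, differed in sign at 0.04 and -0.46. RpL11 had 7182, 8522 and 9862 normalised counts at the lowest, median and highest in tau libraries, against 9220, 10765 and 21029 in control libraries, and the groups overlapped. RpL23A and RpL39, proteins of the exit tunnel for the growing chain, stood at -0.19 and 0.13.

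In the small subunit, RpS3, at the messenger RNA entry, stood at a log2 fold change of -0.15, RpS6, the substrate of S6 kinase, at 0.04, and sta at -0.15. Their limma adjusted p were 0.663, 0.896 and 0.649. The members made as fusions to ubiquitin were RpS27A and RpL40. RpS27A had 7878, 10026 and 11504 normalised counts at the lowest, median and highest in tau libraries, against 11043, 12119 and 14923 in control libraries. The ranges overlapped in part, and exons of RpS27A overlap those of Ip259 on the same strand. RpL40 stood at 0.04 (adjusted p = 0.859), and of the polyubiquitin genes Ubi-p5E and Ubi-p63E 0 of 2 were called.

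The subunits differed slightly in their centre. The median log2 fold change was -0.02 over the 51 large subunit members and -0.15 over the 34 small subunit members, a difference of 0.129, which was 0.076 without control C. The summed normalised count of large over small subunit members was 1.39 at the lowest and 1.49 at the highest in tau libraries, against 1.32 and 1.40 in control libraries. The means of this ratio were 1.44 ± 0.0375 in tau and 1.36 ± 0.0310 in control heads (SD, n = 6 each). Tau B, at 1.393, was below control F, at 1.399, so the ranges met. No test was made of these summaries, since the members were chosen with results known.

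Over the whole family the sums overlapped. Members summed to 1282514 ± 96170 in tau and 1409293 ± 251125 in control heads (SD, n = 6 each), and the control value was 1311511 ± 84382 without control C (n = 5). They made up 4.26% to 5.41% of the total normalised count in tau libraries and 4.39% to 6.28% in control libraries. The median coefficient of variation of a member was 10.6% in tau and 16.5% in control libraries, and 9.2% in controls without control C. Among 4007 other genes with a mean of at least 1000, the same medians were 10.7%, 13.1% and 10.2%.

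A pair of libraries stood apart in the family. Tau E was the lowest of the 12 libraries for 50 of 85 members (58.8%) and for 9.5% of all genes tested. In tau E the median deviation of a member from its own 12-library mean was -0.26 on the log2 scale, with -0.24 for the large and -0.32 for the small subunit. Control C was the highest library for 63 of 85 members (74.1%), whereas it was the highest for 22.1% of all genes tested. The median member lay 0.42 above its mean in control C, with 0.41 for the large and 0.51 for the small subunit. The other 10 libraries had medians between -0.08 and 0.11.

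The members were not all high in control C. RpL24, of the large subunit, was 1.34 higher in control C than in the other controls on the log2 scale, RpLP2 and RpS9 were both 1.22 higher, and RpL38 was 1.19 higher. RpL35, RpL12, RpL22 and RpL36A differed from the other controls by -0.06, -0.06, -0.09 and -0.17 on the same scale. Of these, RpS9, RpL12 and RpL36A were chosen for mention after their values were seen. RpL24 had 10103, 12676 and 14632 normalised counts at the lowest, median and highest in tau libraries, against 12906, 14497 and 36490 in control libraries, and it was not called (log2 fold change -0.41, SE 0.20, limma adjusted p = 0.307). In tau E the neuron markers had a median deviation of 0.14, the haemocyte markers -0.40 and the fat body markers -1.29. In control C the same medians were -0.48, 0.78 and 1.34. Control C also had the lowest estimated depth, 20.1 M read pairs, close to 20.3 M in control E and 20.9 M in control D. It had 3013 genes at 0, the most of the 12 libraries. The part of these in the members' values was not tested.

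With both tau E and control C left out, the same 6 genes were called lower, with log2 fold changes of -0.72 for RpS21, -0.77 for RpL38, -0.50 for RpL41, -0.51 for RpS2, -0.34 for RpS14a and -0.38 for RpL37A. Their adjusted p ran from 0.00159 for RpS21 to 0.0491 for RpL37A, where 2.03% of all genes were called lower. The median over members was then 0.01, and 38 of 85 were below 0.

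**Figure D3:**
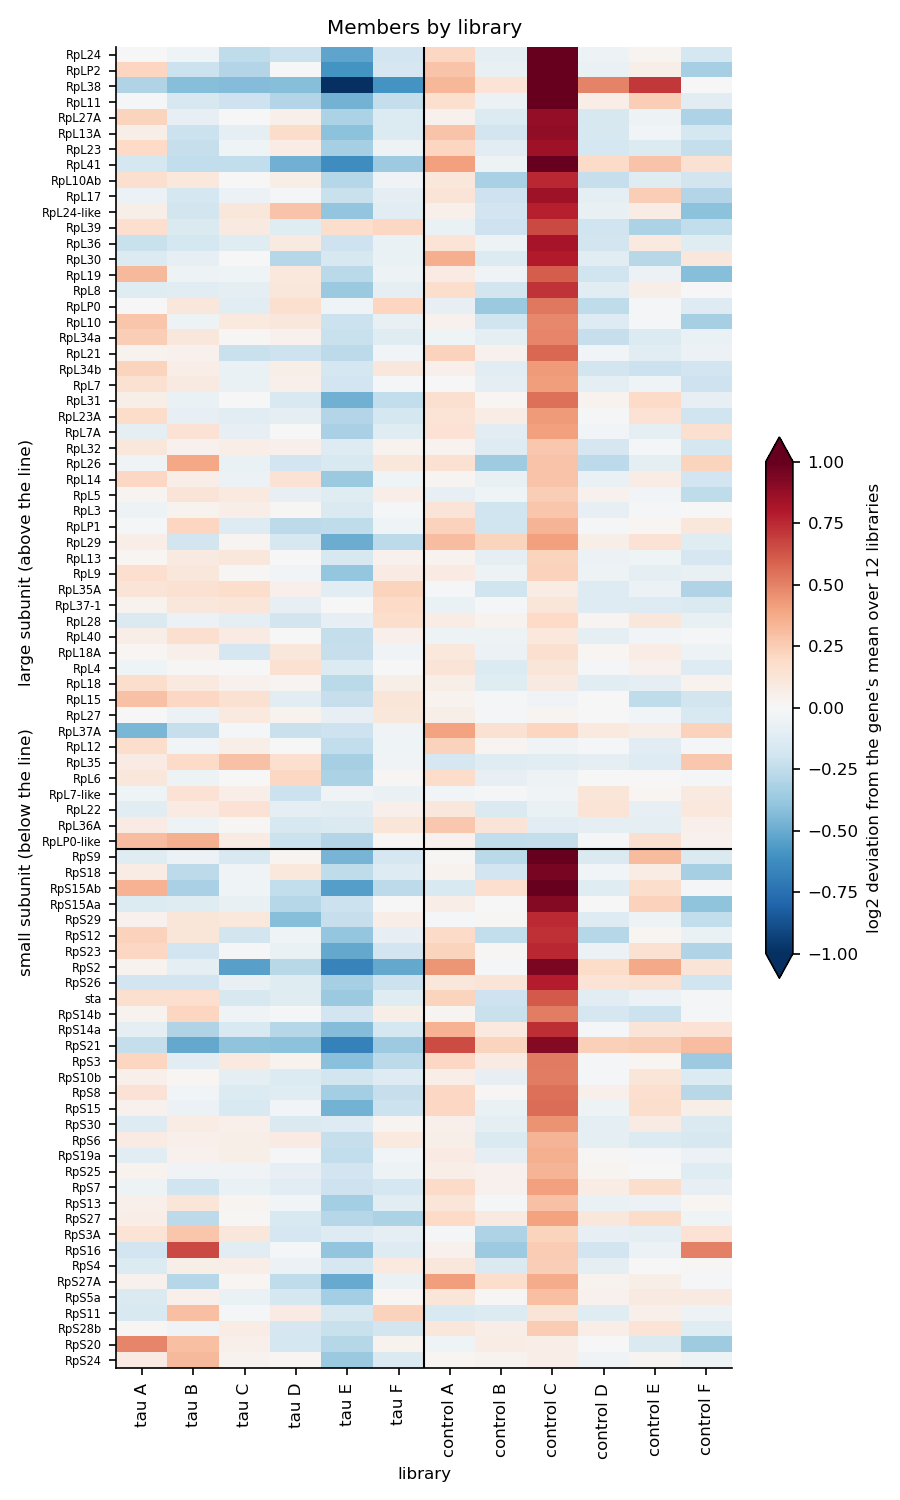
Log2 deviation of 84 of the members tested (rows, large subunit above the line, small subunit below) from its mean over the 12 libraries (columns, tau left of control), with the colour scale limited to 1 either way. Over all 85 members tested, tau E is the lowest library for 50 and control C the highest for 63.

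Levels differed widely among the members. Per kb of annotated exon, the median over the 82 tested members whose names do not end in -like was 15836 normalised counts in tau and 17198 in control heads. The range per kb was 596 to 48518 in tau and 784 to 55974 in control heads. Exon length joins the exons of all transcripts of a gene, such as 842 bp for RpS21 with transcripts of 391 to 715 bp. The levels per kb and their order depend on this choice. RpL41, a gene of 320 bp of exon, had 33152 ± 3788 normalised counts per kb in tau and 55974 ± 18819 in control heads (SD, n = 6 each), the highest control level of the 82. RpL38 was near the low end, with 1386 ± 215 per kb in tau and 3055 ± 1361 in control heads, with RpS15Ab and RpL34a the members below it in control. The other called genes, RpS21, RpS2, RpS14a and RpL37A, held places 64, 59, 63 and 75 of 82 in control, so that 5 of the 6 stood in the lower part of the order and RpL41 at its top.

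Ratios within a library were used for related genes, since a single scaling of the whole library does not move them. The step of 1 read pair differed between genes, so normalisation factors that differ between genes can still move a ratio. Of 13 pairs with both genes in the table, 1 passed an exact two-sided permutation test adjusted over the 13. The log2 ratio of RpS14a over RpS14b was 1.26 ± 0.143 in tau and 1.77 ± 0.085 in control heads (SD, n = 6 each), a difference of -0.51. The exact permutation p was 0.00216, the smallest that 6 against 6 libraries can give, and the adjusted p was 0.0281. RpS14b made up 27.5% to 33.3% of the pair in tau libraries, against 21.6% to 23.9% in control libraries, with no overlap.

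RpS14b itself, at X:7934898-7935792 just beyond RpS14a at X:7933742-7934677, was not called. It had 2499, 2877 and 3314 normalised counts at the lowest, median and highest in tau libraries, against 2449, 2676 and 4069 in control libraries, and a log2 fold change of 0.03 (SE 0.12, limma adjusted p = 0.948). The summed count of both genes was 8531 to 10555 in tau libraries, against 10579 to 17658 in control libraries, with no overlap. The log2 difference of the sum was -0.35, with an exact two-sided permutation p of 0.00216, or 0.00648 adjusted over the 3 sums of copies examined. RpS14a made up most of the sum in every library, so this result is not separate evidence from the call of RpS14a. Treated as 1 gene in the limma fit over all genes, the sum was not called (SE 0.11, adjusted p = 0.0937). Neighbouring copies with the same coding product can share reads, so the split of reads between RpS14a and RpS14b is uncertain.

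The 5 other pairs with both genes tested did not pass. RpL24-like, the fly relative of the yeast assembly factor Rlp24, made up 24.6% ± 3.0 of the sum with RpL24 in tau and 20.5% ± 2.2 in control heads (SD, n = 6 each). The log2 ratio of RpL24 over RpL24-like differed by -0.34 (exact permutation p = 0.0173, adjusted p = 0.113), and this pair passed when tau B was left out (exact permutation test, adjusted p = 0.0281). RpL34a made up 9.57% ± 0.64 of its pair with RpL34b in tau and 9.85% ± 0.50 in control heads. RpS15Ab made up 3.24% ± 0.70 of its pair with RpS15Aa in tau and 3.40% ± 0.51 in control heads. RpL7-like and RpLP0-like, relatives of the yeast assembly factors Rlp7 and Mrt4, made up 3.52% and 1.85% of the sum with RpL7 and RpLP0 in tau, against 3.68% and 1.90% in control heads. The adjusted p of these other ratios ran from 0.848 to 0.97 in the exact permutation test.

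**Figure D4:**
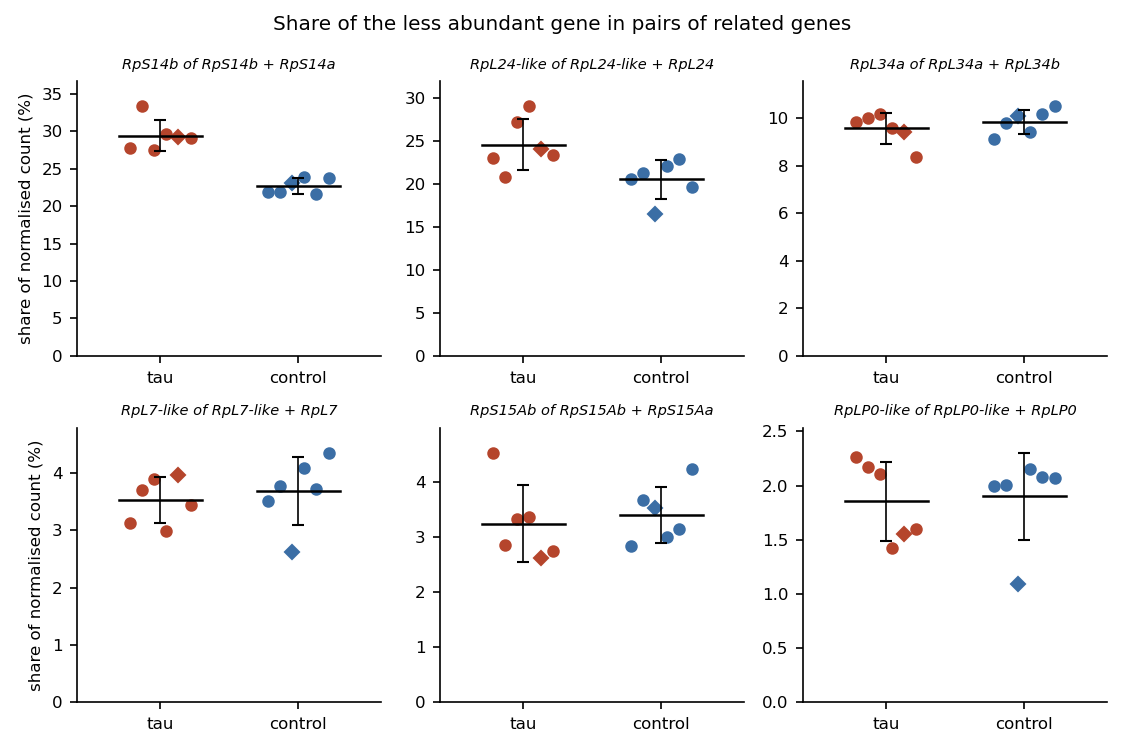
Share of the less abundant gene in the summed normalised count of each of 6 pairs, in percent, 1 point per library with tau left of control; lines are means, bars are SD (n = 6 each), and diamonds mark tau E and control C. The RpS14b share is 27.5% to 33.3% in tau and 21.6% to 23.9% in control libraries, while the groups overlap in the other 5 pairs.

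The remaining 7 pairs joined an abundant gene to 1 with a mean under 10. The low genes were RpL10Aa, RpL22-like, RpL37-2, RpS10a, RpS19b, RpS28a and RpS5b, of which RpL22-like, RpS5b and RpS19b are known from the germ line. RpS28a was listed at 0 in 10 of 12 libraries, with 10.2 in control E and 4.3 in control F. RpS10a reached 35.6, RpS5b 29.6, and RpL10Aa and RpS19b both 22.3, in each case in tau B. Tau B, control E and control F also had the fewest genes at 0, with 195, 433 and 484, against 1492 to 3013 in the other 9 libraries. No ratio of these 7 pairs passed the test.

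Genes that make, load or accompany ribosomes were set beside the members. Of 28 initiation factors, counting eEF5, formerly named eIF5A, and 8 elongation and release factors, 0 were called, with a median log2 fold change of 0.06 in both lists. Of 7 proteins that act at the ribosome surface or exit tunnel, 0 were called and the median was -0.19. Of 71 mitochondrial ribosomal proteins, 1 rose and 0 fell, and the median was -0.08. In control C this mitochondrial list had a median deviation of 0.47 and the ribosome surface list 0.45, close to the 0.42 of the members, while initiation factors had 0.11 and assembly factors -0.22.

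Single genes of the regulator and assembly lists rose. Myc, a transcription factor that drives ribosome production, had 10936 to 12570 normalised counts in tau libraries, against 6252 to 8717 in control libraries. Its means were 11563 ± 547 in tau and 7848 ± 881 in control heads (SD, n = 6 each), 1.48-fold higher in tau (limma adjusted p = 0.00112), the 1 call among 12 genes of RNA polymerase I and the Myc network. Nop60B, the pseudouridine synthase of ribosomal RNA, averaged 1052 ± 137 in tau and 772 ± 104 in control heads and was the 1 call among 25 assembly genes (1.36-fold higher, adjusted p = 0.0343). The median log2 fold change was 0.20 in both of these lists.

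Of 9 genes of the TOR pathway and of control of pyrimidine-tract messenger RNAs, 2 rose. REPTOR, a transcription factor held back by TOR, averaged 9765 ± 746 in tau and 7634 ± 662 in control heads (SD, n = 6 each; limma adjusted p = 0.0181). Thor, the 4E-BP that restrains initiation, averaged 9318 ± 2312 in tau and 5998 ± 834 in control heads (1.52-fold higher, adjusted p = 0.0262). Of 5 genes of the response to Minute mutations, 1 rose: Irbp18, which averaged 592 ± 65.7 in tau and 425 ± 69.7 in control heads (1.40-fold higher, adjusted p = 0.0381). Its partner Xrp1 averaged 27032 ± 2785 in tau and 21997 ± 2946 in control heads and was not called (log2 fold change 0.30, adjusted p = 0.133). Of M1BP, Dref and Trf2, factors known at ribosomal protein promoters in the fly, 0 of 3 were called.

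**Figure D5:**
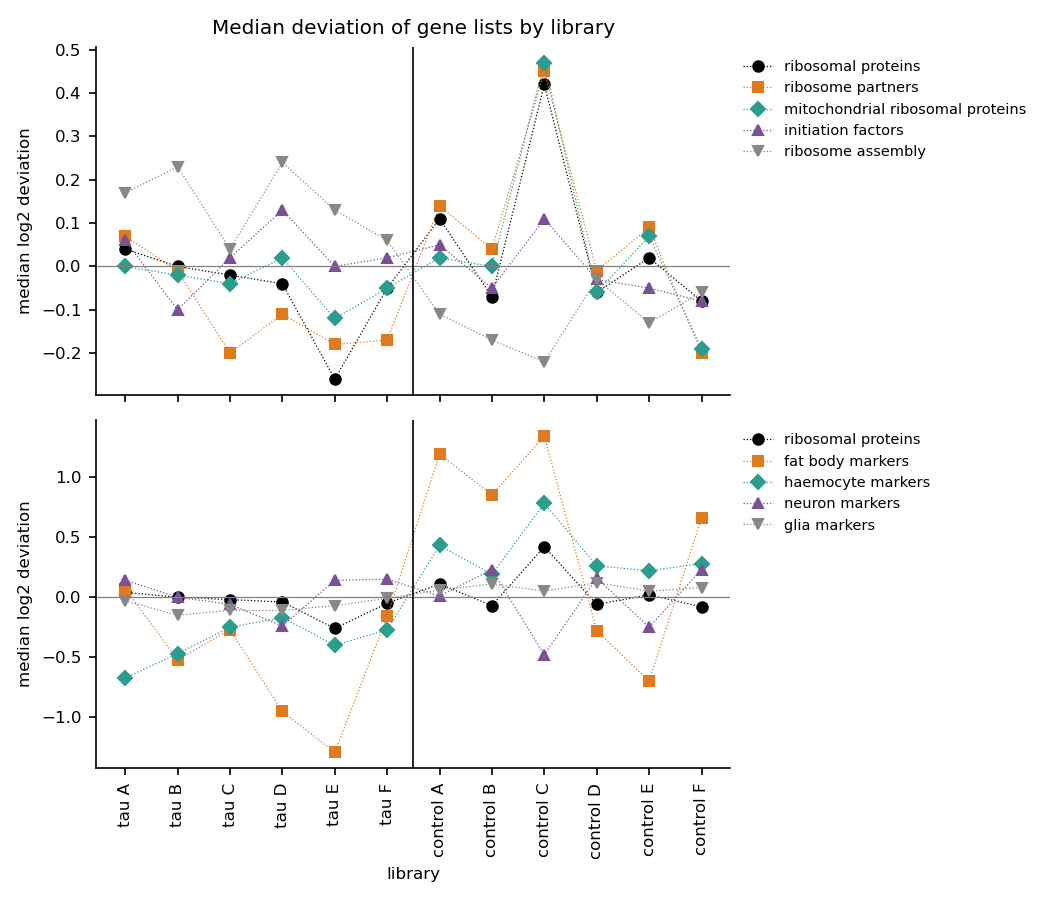
Median log2 deviation of each gene list from the 12-library mean of its genes, by library with tau left of control; the upper panel holds ribosomal and translation lists, the lower panel cell type markers, each beside the 85 members. Members lie at -0.26 in tau E and 0.42 in control C, and the fat body markers lie at -1.29 in tau E and 1.34 in control C.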

How the data were processed

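Head RNA of 6 tau and 6 control pools was sequenced as stranded, ribosomal RNA-depleted read pairs, per the labels' protocols. Per the submitters' processing notes, the tools were Trimmomatic 0.36, FastQC, Salmon 0.13.1 and DESeq2 1.24, with build dm6. The table holds a normalised signal for each gene and library, which the authors made from Salmon estimates as gene counts over DESeq2 normalisation factors, per the file's header and name and those notes. How transcripts were summed to genes, with which annotation, and whether rows were removed was not stated there. Values were not whole and the step of 1 read pair differed between genes, so no count model was run. Depth was estimated as each library's total over its commonest smallest step, with totals of 24.65 to 26.68 M in tau and 25.92 to 30.24 M in control libraries.

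Genes with a mean of at least 10 were tested with limma 3.58.1 (R 4.3.3), by a two-sided moderated test with eBayes and its variance trend on log2(value + 1), a scale that understates changes of low genes. The fit was tested on simulated data. SE is limma's moderated standard error. P-values were adjusted over all genes by the Benjamini-Hochberg method, at a threshold of 0.05. Ratios of 13 gene pairs were compared by exact two-sided permutation over libraries. Symbols were matched for 13432 identifiers and 83 had none. Positions, exon lengths and overlaps are those of an Ensembl BDGP6 annotation, whose coordinates equal dm6. The members, the other gene lists and the alternatives were chosen with earlier results of these data known. Named members are those called, the 6 highest and 6 lowest fold changes, the paired genes and a set of roles; from other lists, called genes were named, at most 3 each. The values of 1 member, which was not called, are in the counts and summaries but are not reported here on their own.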

Additional observations from a re-analysis of the deposited data

Results flagged for a closer look

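In 41 of 184 sets of 6 libraries examined (22.3%), the highest or lowest library lay far from the other 5 by Dixon's test of the gap at the 95% level, which chance gives in about 1 of 20 sets. The sets were the tau and the control values of 84 members tested, the sum over all members, the ratio of subunits and 6 pair ratios. Control C was the library in 32 of the 41 sets. These sets share libraries, so the flags are not independent.

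The summed normalised count of the members was 1097442 in tau E, below the other 5 tau libraries, and 1898201 in control C, above the other 5 controls. Tau E was low in RpS6 at 28629, RpL32 at 14515 and RpL18 at 7257. RpL28 was high in tau F at 16043 and RpS16 in tau B at 8269. RpL6 was high in control A at 22910, RpL12 in control A at 15783 and RpL35 in control F at 18193. The log2 ratio of RpLP0 over RpLP0-like was 6.50 in control C, above the other 5 controls.

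Control C was the highest control for more members than those flagged by Dixon's test, and the flagged genes alone are listed here. The flagged large subunit genes were RpL13A at 54332 normalised counts, RpL23 at 49131, RpLP0 at 49064, RpL8 at 41353, RpL27A at 36598, RpL24 at 36490, RpLP2 at 34788, RpL7 at 34062, RpL36 at 31541, RpL41 at 29744, RpL31 at 24309, RpL11 at 21029, RpL34b at 17343, RpL24-like at 7237, RpL10Ab at 6339, RpL38 at 5752, RpL39 at 2486 and RpL34a at 1945. The flagged small subunit genes were RpS9 at 73232, RpS29 at 50403, RpS18 at 38111, RpS26 at 33854, RpS15Aa at 26834, RpS10b at 16558, RpS19a at 15382, RpS5a at 14022, RpS25 at 13867, RpS30 at 12069, RpS14b at 4069 and RpS15Ab at 979.8. Of the genes called lower in tau, RpL38 and RpL41 are in this list, and both were called without control C as well. For RpS21, RpS2 and RpS14a, control C was also the highest control, at 12757, 21098 and 13589, but was not flagged.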

How the results depend on the processing

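Over 936 refits of named members, no call reversed its direction, 14 lost a call and 2 gained a call. In 917 a call was kept, or an uncalled value stayed uncalled and moved by less than the spread between libraries. The other 3 stayed uncalled but moved by more than that spread. The count of members called lower was 6 with other pseudocounts, other filters on low values, recentred libraries, array weights or members named -like left out. In those fits 2.31% to 4.21% of all genes were called lower. The count was 3 without a variance trend, 1 with the yolk protein covariate and 3 without tau B, control E and control F. The shares of all genes called lower there were 1.95%, 0.848% and 1.68%. Without a single library the count was 5 to 7, where 2.03% to 4.09% of all genes were called lower. In the fit without tau B, control E and control F, RpS2 stood at the limit itself. With RpS14a and RpS14b summed the count of members called lower was 5, where 3.1% of all genes were called lower. Equal library totals gave 1 member called higher, RpL35A, where 4.82% of all genes were called higher. The fit with a replicate block called 9 members lower, adding RpL29, RpS27 and RpS27A, where 4.31% of all genes were called lower. However, nothing says that the letters mark a shared origin. Same-letter correlations of deviations ran from -0.226 to 0.137, and 2 of 6 tau libraries, A and C, correlated best with the control of their own letter. The difference between large and small subunit medians was 0.129, 0.171 without tau B, control E and control F, and 0.057 without tau E and control C, an alternative chosen after seeing the data; without a single library it ran from 0.076 (control C) to 0.160 (control F).

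Of the 13 pairs, 1 passed, and without a single library 1 to 2 passed, RpL24 with RpL24-like joining when tau B was left out. There were 0 in the replicate block, where the smallest possible p was 0.0312, 0 without tau B, control E and control F (adjusted p = 0.0516 for RpS14a over RpS14b in the exact permutation test) and 0 without tau E and control C (adjusted p = 0.103), where fewer libraries raise the smallest p. In these fits the RpS14 difference was -0.51, -0.45 and -0.51. The cause of the other changes was not tested. Depth could only be estimated, so no counting error was given for single values.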
